A study of Populus tremula x Populus alba with 2 samples.

Results

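Lignin precursors are made from phenylalanine, and the route opens with enzymes of 3 families that all phenylpropanoids share. Phenylalanine ammonia-lyase (PAL) removes the amino group of phenylalanine to give cinnamic acid, cinnamate 4-hydroxylase (C4H, a membrane-bound cytochrome P450) adds a hydroxyl group to give p-coumaric acid, and 4-coumarate-CoA ligase (4CL) joins that acid to coenzyme A. The thioester is then carried on to the monolignols, the alcohols that are polymerized into lignin in the walls of wood cells. The 9 genes described here are PAL1 to PAL5, C4H1, C4H2, 4CL3 and 4CL5 of poplar. They were taken by their gene identifiers from a table of 41335 poplar genes, as a pathway chosen with earlier results of these data known.

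The RNA came from debarked young stem, internodes 1 to 15 counted from the shoot tip, of hybrid aspen (Populus tremula x Populus alba) after about 2 months in a greenhouse. The MOMT4 group was the transgenic line MOMT4-0, a single line of the aspen clone INRA 717-IB4, in which an engineered monolignol 4-O-methyltransferase is expressed from the promoter of the bean PAL2 gene. The WT group was the control, labelled wild type; whether it carried an empty vector is not given in the sources used here. Material of 2 to 3 plants was pooled in each group and sequenced as 1 library, so the comparison is of 1 library with 1 library. No value has an SD, and the lines could not be compared by a test.

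Levels are RPKM, which by the authors' account are read counts divided by exon length and by the mapped reads of the library. They may therefore be compared between genes of different length within a library. A difference between the libraries is given as log2((MOMT4 + 1)/(WT + 1)), where 1 RPKM is added to both values, and is negative where the MOMT4 library was lower. From the spacing of low values, the RPKM appear to have been scaled to about 9460000 reads in MOMT4 and 8750000 reads in WT. That these equal the sequenced reads was not tested. The one row that is no poplar gene, taken as the MOMT4 transgene, stood at 1222 RPKM in the MOMT4 library and 4.79 RPKM in the WT library, which follows the labels. The labelled tissue was not checked against marker genes here, since the table gives no gene names.

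All 9 genes were expressed in both libraries and passed the expression filter, a mean over both libraries of 1 RPKM or more. Their summed level was 1187 RPKM in MOMT4 stems and 1373 RPKM in WT stems, 0.180% and 0.205% of the RPKM of all poplar genes in the same library. Of the 9 genes, 8 were lower in the MOMT4 library and 1, PAL1, was marginally higher. By any amount, 50.9% of the 22944 poplar genes that passed the filter were lower in MOMT4. The median log2 ratio was -0.25 over the 9 genes and -0.0057 over all genes that passed. None of the differences was large. At least 2-fold apart were 0 of the 9 genes, where 1.77% of all genes were that far apart, and at least 1.5-fold apart were also 0 of the 9, against 7.07% of all genes. Of the 1179 genes with a mean of 100 RPKM or more, 5 were at least 2-fold and 28 at least 1.5-fold apart. With shares this low, a count of 0 does not set the 9 genes apart.

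**Figure D1:**
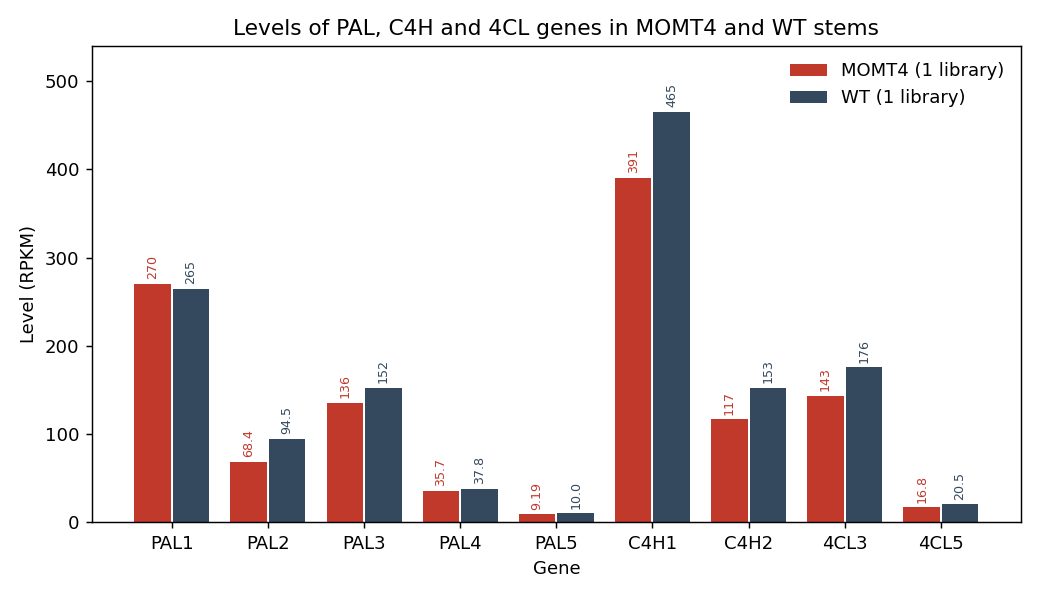
Level of each gene (vertical axis, RPKM) in the MOMT4 library (red bars) and the WT library (dark bars), 1 library each and therefore without error bars. C4H1 was the most abundant gene in both libraries and PAL5 the least, and PAL1 is the one gene whose MOMT4 bar is the taller.

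PAL, the step at which carbon leaves primary metabolism, was carried by genes of very different abundance. PAL1 (Potri.006G126800, chromosome 6, 10249101 to 10252655) was the most abundant of them, with 270.2 RPKM in MOMT4 and 264.7 RPKM in WT. Its log2 ratio was 0.029, a ratio of 1.02, so the main PAL transcript stood at nearly the same level in both stems. PAL3 (Potri.016G091100, chromosome 16, 7482820 to 7486204) had 135.7 RPKM in MOMT4 and 152.4 RPKM in WT, with a log2 ratio of -0.17. PAL1 and PAL3 lie on chromosomes that are known as copies of one another from an ancient whole-genome duplication in the poplar lineage, and form one branch of the PAL family. Within this pair PAL1 was 1.99 times as abundant as PAL3 in MOMT4 and 1.74 times in WT.

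The other branch of the family, PAL2, PAL4 and PAL5, was less abundant. Its summed level was lower in the MOMT4 library, mostly through PAL2. PAL2 (Potri.008G038200, chromosome 8, 2123928 to 2128275) had 68.4 RPKM in MOMT4 and 94.5 RPKM in WT. This was 27.6% lower in MOMT4, with a log2 ratio of -0.46, the most negative among the 9 genes. PAL4 (Potri.010G224100, chromosome 10, 20815419 to 20819184) had 35.7 RPKM in MOMT4 and 37.8 RPKM in WT. PAL5 (Potri.010G224200, chromosome 10, 20822276 to 20825759) had 9.19 RPKM in MOMT4 and 10.04 RPKM in WT. Their log2 ratios were -0.081 for PAL4 and -0.12 for PAL5, small beside that of PAL2. PAL4 and PAL5 stand in tandem, with 3091 bases between them, yet PAL4 was 3.88 times as abundant as PAL5 in MOMT4 and 3.77 times in WT. How the authors assigned reads that match several copies is not given in the sources used here, so the split of reads between PAL4 and PAL5 is uncertain. The same limit applies to the other genes within each family, and to the shares given below.

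Summed over the branches, PAL1 and PAL3 together had 405.9 RPKM in MOMT4 and 417.1 RPKM in WT, whereas PAL2, PAL4 and PAL5 together had 113.3 RPKM in MOMT4 and 142.3 RPKM in WT. The ratio of MOMT4 to WT was 0.973 for the abundant branch and 0.796 for the other, and PAL2 made up most of the difference in that branch. By gene, the ratio was 0.944 for PAL4 and 0.916 for PAL5, above the 0.890 of PAL3 in the abundant branch. All genes of the less abundant branch were thus lower in MOMT4, but PAL4 and PAL5 by less than PAL3. Counting error, given below, leaves PAL5 between 0.672 and 1.24 for an assumed 1000 bases, a range that includes the ratio of PAL2. Sums by branch were not among the planned results. The whole family had 519.2 RPKM in MOMT4 and 559.5 RPKM in WT, a ratio of 0.928. Without PAL2 the ratio was 0.969, and without PAL1 it was 0.845.

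C4H acts on the product of PAL and depends on a P450 reductase for its electrons. C4H1 (Potri.013G157900, chromosome 13, 16037916 to 16042613) was the most abundant of all 9 genes, with 390.6 RPKM in MOMT4 and 465.3 RPKM in WT. It ranked 144 among the 41335 poplar genes in the MOMT4 library and 103 in the WT library. Its log2 ratio was -0.25, and its level in MOMT4 was 0.840 times that in WT. C4H2 (Potri.019G130700, chromosome 19, 15645542 to 15649340), the copy on the duplicated chromosome, had 116.7 RPKM in MOMT4 and 152.5 RPKM in WT. It was 23.5% lower in MOMT4, with a log2 ratio of -0.38. The C4H total was 507.3 RPKM in MOMT4 and 617.8 RPKM in WT, a ratio of 0.821, with both genes lower in MOMT4.

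4CL closes the shared route, and the proteins of 4CL3 and 4CL5 are known to assemble into a mixed complex in poplar xylem. 4CL3 (Potri.001G036900, chromosome 1, 2614753 to 2618030) had 143.3 RPKM in MOMT4 and 175.6 RPKM in WT, with a log2 ratio of -0.29. 4CL5 (Potri.003G188500, chromosome 3, 19368564 to 19373070) had 16.8 RPKM in MOMT4 and 20.5 RPKM in WT, with a log2 ratio of -0.27. The 2 genes were thus 18.4% and 18.1% lower in MOMT4, although 4CL3 was 8.52 times as abundant as 4CL5 in MOMT4 and 8.55 times in WT. The family total was 160.1 RPKM in MOMT4 and 196.1 RPKM in WT, a ratio of 0.816.

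The make-up of each family was close in the 2 libraries. PAL1 accounted for 52.0% of the PAL total in MOMT4 and 47.3% in WT, a difference of 4.72 percentage points that was the largest among the 9 genes. PAL2 accounted for 13.2% in MOMT4 and 16.9% in WT, a difference of -3.71 points. PAL3 accounted for 26.1% in MOMT4 and 27.2% in WT. PAL4 held 6.87% in MOMT4 and 6.75% in WT, and PAL5 held 1.77% in MOMT4 and 1.79% in WT. The order of the PAL genes, PAL1 over PAL3, PAL2, PAL4 and PAL5, was the same in both. C4H1 held 77.0% of the C4H total in MOMT4 and 75.3% in WT. 4CL3 held 89.5% of the 4CL total in both libraries, the difference being -0.033 points. Shares were taken over the members named here, and any further genes of these families were not included. The reads of this hybrid were aligned to the genome of another species, P. trichocarpa, allowing 1 mismatch, and the effect of that on the balance between copies was not tested.

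**Figure D2:**
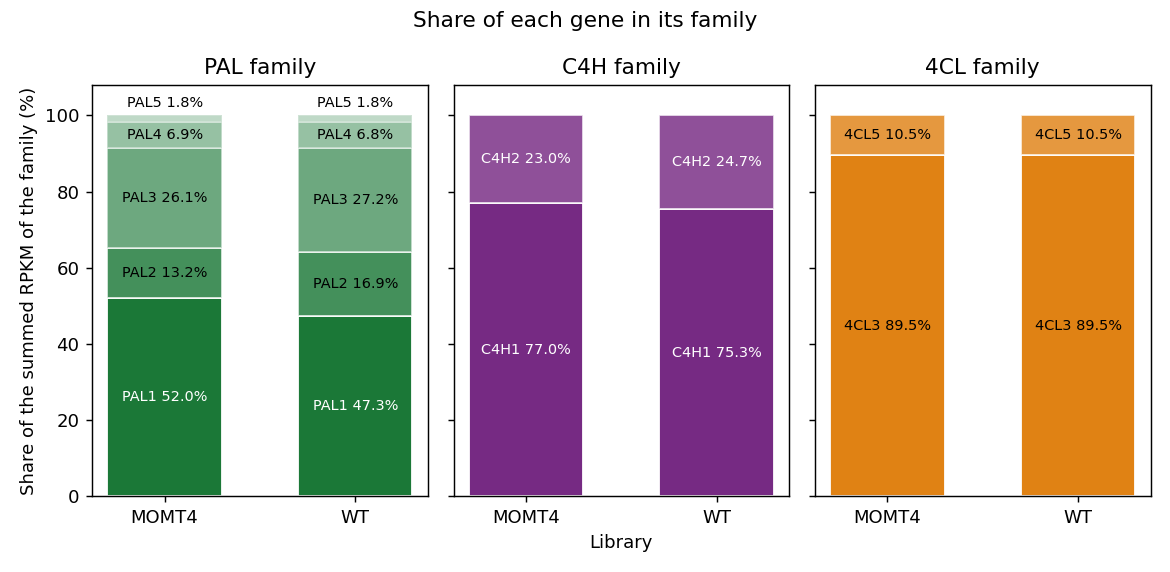
Share of each gene in the summed RPKM of its family (vertical axis, %), in the MOMT4 library (left bar) and the WT library (right bar) for PAL, C4H and 4CL. The PAL1 segment is larger and the PAL2 segment smaller in MOMT4, while the 4CL bars are alike, with 4CL3 at 89.5% in both.

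The balance between the families can be read from their sums. Summed C4H was 0.977 times summed PAL in MOMT4 and 1.10 times in WT. Summed 4CL was 0.308 times summed PAL in MOMT4 and 0.351 times in WT, and C4H was 3.17 times 4CL in MOMT4 and 3.15 times in WT. C4H and 4CL thus stood in nearly the same proportion to each other. Both sums were lower against the PAL sum in the MOMT4 library. How far they stood below depended on which PAL genes were summed. Without PAL1, the most abundant PAL gene, the ratio of MOMT4 to WT was 0.845 for summed PAL, beside 0.821 for C4H and 0.816 for 4CL. Without PAL2 it was 0.969 for summed PAL. By gene, the ratio was 1.02 for PAL1, 0.944 for PAL4, 0.916 for PAL5 and 0.890 for PAL3. These lay above the C4H and 4CL genes, which ran from 0.765 to 0.840, whereas PAL2 at 0.724 lay below them.

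The transgene is read from a PAL promoter, that of bean, and its level can be set beside the poplar genes of the same family. Per length, the row taken as the transgene was 4.52 times as abundant as PAL1 in the MOMT4 library and 2.35 times as abundant as the 5 PAL genes summed. It was 3.13 times as abundant as C4H1. The reads of this hybrid were aligned to the genome of another species, P. trichocarpa, with few mismatches allowed. Whether this lowered the poplar genes against the transgene row, and so raised these ratios, was not tested.

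**Figure D3:**
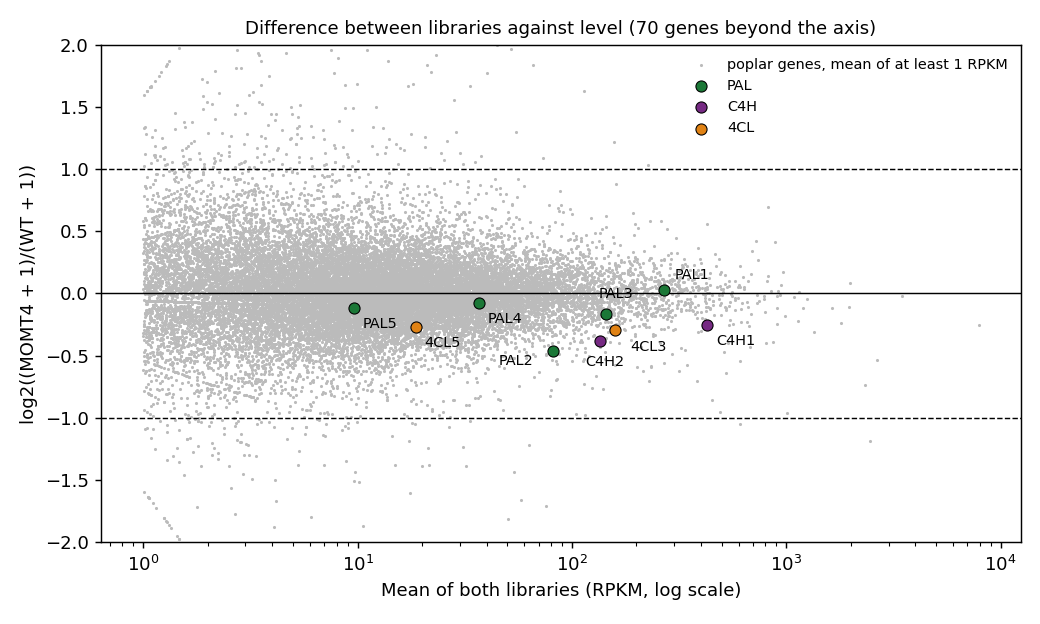
Difference between the libraries (vertical axis, log2 ratio with 1 RPKM added) against the mean of both libraries (horizontal axis, RPKM, log scale) for the 22944 poplar genes kept by that filter (grey), with 70 genes beyond the axis, and for the PAL, C4H and 4CL genes (colours). Dashed lines mark 2-fold differences; the 9 genes lie inside them, 8 below 0 and PAL1 just above.

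Over all genes that passed the filter the central 95% of log2 ratios ran from -0.63 to 0.71, and over the 1179 genes with a mean of 100 RPKM or more from -0.50 to 0.42. Since this spread depends on the level, each gene was set beside the 500 poplar genes nearest to it in mean RPKM. PAL2 had a lower log2 ratio than all but 2.4% of its 500 genes, and lay just outside their central 95%, which ran from -0.44 to 0.52. With 200 like genes in place of 500 that range began at -0.54 and PAL2, at the percentile 4.0, lay inside it. C4H2 stood at the percentile 3.6 and 4CL3 at 4.4, inside the central 95% but near its lower end. C4H1 stood at 8.8, 4CL5 at 11.8 and PAL3 at 17.8. For C4H1 few genes are as abundant, and its 500 genes ranged from 186 to 964 RPKM in mean level. PAL5 at 31.0, PAL4 at 38.2 and PAL1 at 55.6 lay near the middle of their like genes. In all, 8 of the 9 genes were below the median of their like genes and 8 were inside the central 95%, or 9 with 200 like genes. The genes share both libraries and are known to be regulated together in wood, so the 9 values are not independent, and the percentiles describe these libraries only.

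Counting error was smaller than several of these differences, as it was for many other genes of their level. Exon lengths are not in the table, so reads were estimated for an assumed 1000 bases of counted exon, which gave 87 to 4073 reads per gene and library. They were also estimated for the whole span of the gene less 215 bases. From the spacing of low values, that length appears to have been taken off single-exon genes in the authors' scaling. The true counted length lies below the span, and was taken to be above 1000 bases. Intervals are exact Clopper-Pearson 95% intervals on the split of the estimated reads and cover counting error only, not differences between plants or pools. With 1000 bases the ratio of MOMT4 to WT was 0.724 for PAL2, with an interval of 0.653 to 0.804, and 0.765 for C4H2, with an interval of 0.706 to 0.829. It was 0.840 for C4H1, with an interval of 0.803 to 0.878, and 0.816 for 4CL3, with an interval of 0.758 to 0.878. The interval for PAL3 was 0.824 to 0.962 around a ratio of 0.890. These 5 intervals exclude 1. So did those of 19.6% of all 22944 genes, most of them less abundant, and those of 42.0% to 63.2% of the 500 genes nearest in level to each of the 5, so an interval that excludes 1 does not set these genes apart. For PAL1 the interval was 0.965 to 1.08, for PAL4 it was 0.809 to 1.10, and for PAL5, the least abundant, it was 0.672 to 1.24. That for 4CL5 was 0.656 to 1.02 with 1000 bases and 0.737 to 0.908 with the whole span of the gene, so whether its difference exceeds counting error depends on the length assumed. With the whole span, 6 of the 9 intervals exclude 1, against 42.9% of 22915 genes longer than 215 bases, and those of PAL1, PAL4 and PAL5 still include it. Over the 500 genes nearest in level to each of these 6, the share was 50.0% to 77.4%.

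**Figure D4:**
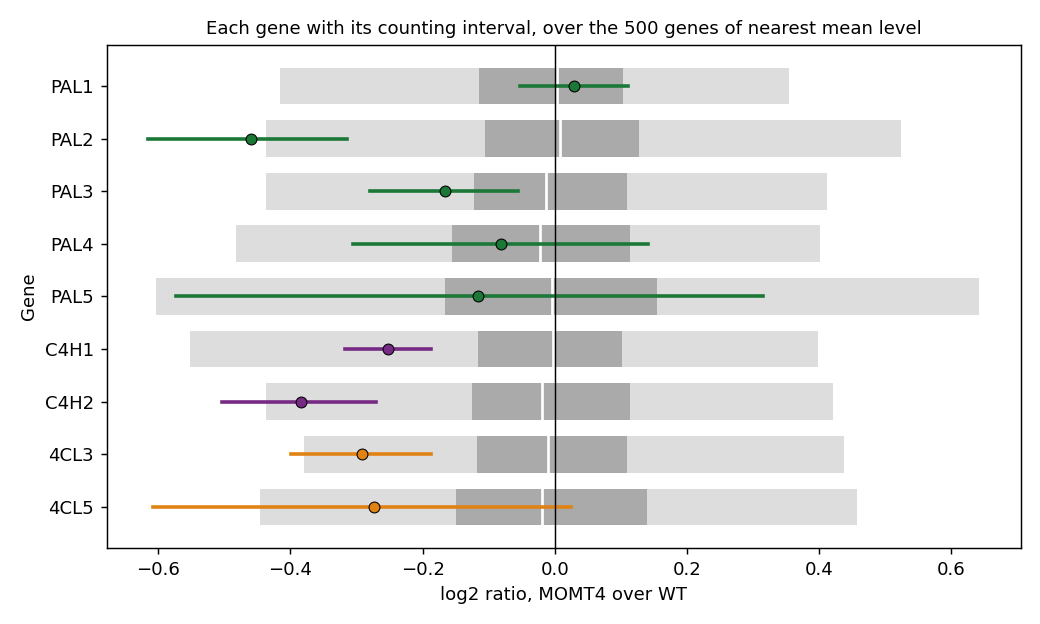
Log2 ratio of each gene (points, with 1 RPKM added) with its counting interval for 1000 bases (coloured lines, no RPKM added), over the central 95% (light bars), the middle 50% (dark bars) and the median (white ticks) of the 500 poplar genes of nearest mean level. PAL2, C4H2 and 4CL3 lie near or beyond the lower end of the light bars, while PAL1, PAL4 and PAL5 lie within the dark ones.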

How the data were processed

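RNA-seq of debarked stem was deposited for 2 pooled libraries, 1 of line MOMT4-0 and 1 of the wild type control. Per the paper's methods, the authors used TopHat to align single-end reads to a PlantGDB copy of the P. trichocarpa genome, derived counts for each gene, turned them into RPKM and ran Cuffdiff. Versions and the genome build are not given in the sources used here. The deposited table holds 1 RPKM column per library. Its columns of the authors' fold changes, test statistics, p and q values were not used. The columns are headed MOMT4 and WT, whereas the short sample codes beside them run against the sample descriptions; the headings were followed. Positions are the table's, with 1 added to the start.

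Log2 ratios with a pseudocount of 1 RPKM were calculated for poplar genes whose mean over both libraries reached 1 RPKM, without the 2 rows marked as failed. Like genes were the 500 nearest in log mean RPKM. Scaling totals came from ratios of low values with denominators up to 60 and a straight line over spans less 215 bases. These steps were tested on simulated data. The members and lists were chosen with earlier results of these data known, and genes were named by one rule, that all 9 members are named. Later pathway genes, further family members, tissue markers and promoters were to be used only where annotated, and were not analysed here. With no exon lengths, the lengths assumed for counting intervals were chosen after seeing the data. Alternatives were a pseudocount of 0.1, centring, rescaling, other expression filters, a limit of 1.5-fold, each family alone, and 200 or 1000 like genes. The software was Python 3.11.15 with SciPy 1.17.1, NumPy 2.4.6, pandas 2.3.3 and, for plots, matplotlib 3.10.9.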

Additional observations from a re-analysis of the deposited data

How the results depend on the processing

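The median log2 ratio of the 9 genes, -0.25, lay between -0.25 and -0.23 with a pseudocount of 0.1, with centring on the median of all genes or, chosen after seeing the data, on that of genes averaging 100 RPKM or more, and with poplar values rescaled to a sum of 1000000. By family it was -0.12 for PAL, -0.32 for C4H and -0.28 for 4CL. The count of genes lower in MOMT4, 8 of 9, was also 8 with a pseudocount of 0.1, with centring on all genes and after rescaling, which were applied to it after seeing the data. The number of genes at least 2-fold apart was 0 under each filter, with a pseudocount of 0.1 and with a limit of 1.5-fold, while the share of all genes at least 2-fold apart was 3.75% with a pseudocount of 0.1, 1.36% with no filter and 0.855% for means of 5 RPKM or more. With 200 or 1000 like genes, percentiles moved by at most 5.2 points; that of PAL4 was 33.0 with 200. PAL2 lay outside the central 95% of 500 and of 1000 like genes and inside that of 200, so all 9 genes were inside with 200. Shares over all annotated family members and the later pathway were not run, for want of annotation. No paired analysis was possible because MOMT4 and WT have 1 library each. PAL5, with the fewest reads, is the gene whose difference is least resolved at this depth.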

Other observations

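The genes that surround each of the 9 on its chromosome were read in the same way, as a description. Among the 20 nearest genes that passed the filter, 10 on each side, the median log2 ratio lay between -0.078, around PAL2, and 0.087, around C4H1, and 6 to 13 of the 20 were lower in MOMT4. Around 4CL3 the median was -0.0038, while 4CL3 itself stood at -0.29. Around C4H2 it was -0.043, while C4H2 stood at -0.38. Both tandem genes PAL4 and PAL5 have a median of -0.021 around them, and stood at -0.081 and -0.12. Around PAL1 the median was -0.0069, while PAL1 stood at 0.029. The spread among the 20 neighbours is not given here, so these values do not set a gene apart from its neighbours. 0 of the 9 genes overlap another row of the table.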
